A study of Mus musculus with 6 samples.

Results

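The comparison described here is that of PAMAM against saline in the mouse hippocampus. It rests on 2 of the 6 arrays of the series, the hippocampal PAMAM array and the hippocampal saline array, chosen by their titles. A probe was kept as measured where it was marked as well above background on both arrays, which held for 31636 of the 55681 probes. PAMAM dendrimers are branched polyamidoamine polymers that are studied as carriers for drugs and nucleic acids. The animals were males of the inbred strain BALB/c, 8 weeks old, which took either saline alone or 0.15 mg/kg PAMAM as one intranasal dose, and all tissue was collected after 24 h. The labels name no transgene or engineered allele, and do not say whether the regions came from the same mice. The olfactory bulb and the cerebral cortex were sampled in the same way. RNA for each array was pooled from 6 independent experiments, so each side of the comparison is 1 array without a replicate. No p-value is given for that reason, and the sizes below describe these 2 arrays, whose small number sets how precise they can be. The title of the series names the effects of the dendrimer on the brain as its question.

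The hippocampus is a folded sheet of cortex that forms new memories. Granule cells of the dentate gyrus send their axons to the pyramidal cells of field CA3, which project to field CA1. The structure lies under the cortex, over the thalamus and beside the ventricle that holds the choroid plexus, the epithelium that secretes cerebrospinal fluid, so a dissected hippocampus can carry pieces of these neighbours. Neurons raise a first set of transcription factor genes within minutes of strong activity and a second set of secreted and synaptic effector genes after them. Heat shock proteins and the unfolded protein response are the chaperone systems of the cytosol and of the endoplasmic reticulum.

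Levels are given as log2 of the processed signal minus the log2 of the array's 75th percentile, and a difference is the PAMAM level minus the saline level. A gene is represented by its brightest probe over the 6 arrays, and 22330 of 35018 genes were measured in the hippocampus. The 75th percentile of signal was 640 on the saline array and 547 on the PAMAM array, and 36762 and 34872 of 59305 spots were well above background. Both arrays lie on the same slide but in different rows of it, and row and treatment cannot be told apart. Of 399 probes printed 10 times, the 289 measured on both arrays gave a median spot SD of 0.0642 on the saline array and 0.0677 on the PAMAM array. The difference of a single pair of spots had an SD of 0.0749 for brighter probes and 0.165 for dimmer ones. Among these 289 probes, 12.1% had no overlap between the spots of the 2 arrays, 17 with PAMAM above and 18 with PAMAM below. This spot noise is the only error these arrays give, and it does not include variation between animals or pools.

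The levels matched the label of the tissue. Summed over 7 markers of the whole hippocampus, signal was 100.8 times the 75th percentile on the saline array and 91.9 times on the PAMAM array, against 19.2 on the cortical and 31.6 on the bulb saline array. The summed signal of 8 CA1 markers was 55.2 and 47.1 in the hippocampus and 26.3 in the cortex of saline mice. Markers of the dentate gyrus gave 19.0 and 17.8 in the hippocampus and 8.93 in the cortex. The CA2 list did not follow this order, with 60.8 and 59.2 in the hippocampus and 93.9 in the cortex. Tdo2, a dentate gyrus marker, was not well above background on the PAMAM array, and Iyd, a CA3 marker, on neither.

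Across all genes the median difference was 0.00, and 51.2% of genes were higher with PAMAM by any amount. A smaller threshold of 0.32 on the log2 scale was passed by 1664 genes on the higher side (7.45%) and by 992 on the lower side (4.44%). A 2-fold difference, which is 1 on that scale, was seen for 130 genes with the higher level on the PAMAM array (0.582%) and for 15 with the lower level there (0.0672%). Counted as probes, 193 were 2-fold higher or more (0.61%) and 19 were 2-fold lower or more (0.0601%). With normexp background correction these counts were 71 and 4, and without the filter on dim probes 2480 and 1075. Without that filter the share on the higher side moved from 91.0% to 69.8%.

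Most of the 2-fold differences came from dim probes. With the measured probes cut into 10 classes of equal size by brightness, 61 of the 193 higher probes lay in the dimmest class and 52 in the next, and the brightest class held 0. The dimmest class also had a median difference of 0.09 and the brightest one of -0.01. Further probes for the same gene check the reading of a probe only, since they read the same pooled RNA from the same animals. For 267 genes whose leading probe was higher by at least 0.32, 282 of 372 further measured probes were higher too and 151 passed 0.32. For 185 genes whose leading probe was lower by that amount, 154 of 266 further probes were lower and 58 by that amount as well. Past 2-fold, 9 of 19 further probes went the same way.

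**Figure D1:**
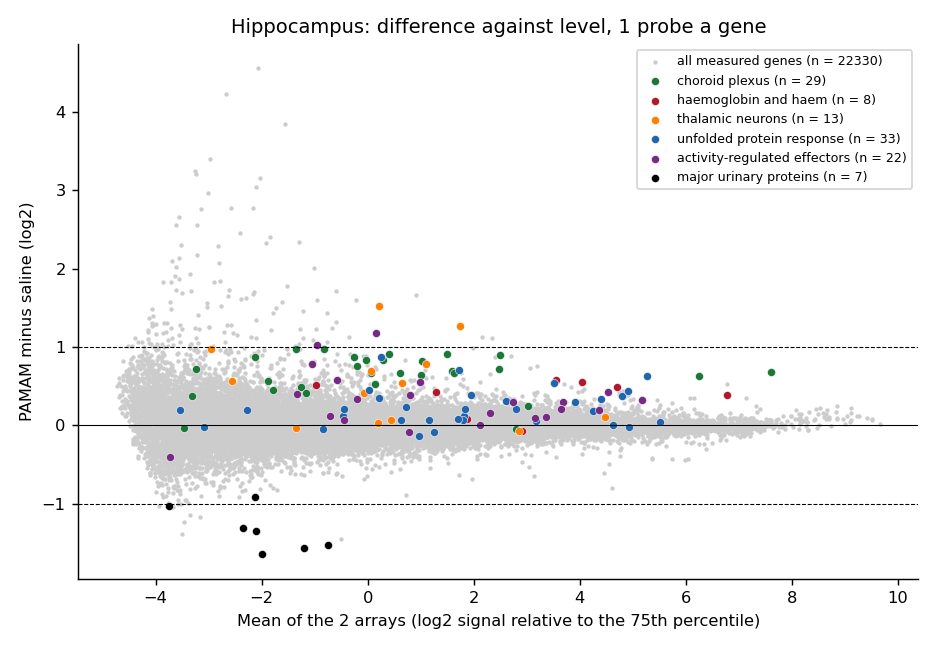
Difference between PAMAM and saline (vertical axis, log2) against the mean level of the 2 hippocampal arrays (horizontal axis, log2 signal relative to the 75th percentile). Each point is 1 of 22330 measured genes, coloured points are members of 6 lists, and dashed lines mark 2-fold; most points beyond 2-fold lie at low levels, and the major urinary protein genes lie below -0.9.

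The clearest group among markers of neighbouring tissue was the choroid plexus, whose genes were higher on the PAMAM array. All 29 of its markers on the array were measured, 27 were higher, 26 by at least 0.32 and 0 lower by that amount, and their median difference was 0.68 against 0.00 for all genes. Ttr encodes transthyretin, the thyroid hormone carrier that this epithelium secretes. Its level was 7.27 on the saline array and 7.95 on the PAMAM array, a difference of 0.68. Folr1, the folate receptor of the epithelium, stood at 2.06 and 2.95, and its second probe differed by 0.83. Kcne2, a potassium channel subunit, had levels of -0.05 and 0.86. These 3 transport and secretion genes were each higher on the PAMAM array by more than 1.5-fold. Sostdc1, a secreted inhibitor of BMP signalling, differed by 0.91 and 0.82 on its pair of probes. F5, coagulation factor V, differed by 0.98 and 0.95, and Slc4a5, a bicarbonate transporter, by 0.97 and 1.18. Otx2, the homeobox factor that maintains the epithelium, differed by 0.82 on its leading probe and 0.36 on the other. Enpp2, which makes lysophosphatidic acid and is also made by oligodendrocytes, differed by 0.63. Slc29a4, a monoamine transporter, and Slco1a5, an organic anion transporter, were the members that were not higher, at -0.05 and -0.04. The summed signal of the list was 258 times the 75th percentile with saline and 405 times with PAMAM, a ratio of 1.57. In the cortex 20 of 22 measured members were higher (53.5% of all genes there) with a median of 0.52, and in the olfactory bulb 10 of 21 (47.3% of all genes there) with a median of -0.02. Regions were not tested against each other.

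Markers of the other tissue around the ventricle and brain surface did not share that size. Ependymal genes, which build motile cilia, had a median of 0.14 over 16 measured members, 2 of them higher by at least 0.32 and 1 lower. Foxj1, the master factor of motile cilia, differed by 0.24. Genes of meningeal fibroblasts had a median of -0.00 over 22 measured members. Dcn, a proteoglycan of connective tissue, stood at 3.72 and 3.71, and Col1a2, a chain of type I collagen, differed by 0.16. In the cortical pair 21 of 22 measured meningeal genes were higher (53.5% of all genes there), with a median of 0.67. The list thus had unlike values in the 2 regions, and the difference was not tested.

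Genes of red blood cells were higher on the PAMAM array where they encode haemoglobin or make haem. Of 8 measured members 7 were higher and 6 by at least 0.32, with a median of 0.46. Hba-a2, an alpha globin gene, had levels of 6.58 and 6.97, and Hbb-b2, a beta globin gene, of 3.27 and 3.85. Alas2, the first enzyme of haem synthesis in red cells, stood at -1.24 and -0.72. The globin probes cannot be assigned to single gene copies, since these genes are near-identical. Slc4a1, the anion exchanger of the red cell membrane, differed by 0.91 at a low level, while Epb42 of the membrane was not above background on either array. The cortex had a median of 0.51 for the haemoglobin and haem genes and the bulb 0.05. Markers of blood leukocytes were mostly not detected. Of 21 on the array 13 were not above background on either array, among them Ly6g, Ngp and Cd3d, and of the 8 measured ones 7 were higher, 2 by at least 0.32, with a median of 0.22. The 3 measured markers of lymphocytes and monocytes were all higher, with a median of 0.41.

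Genes known for thalamic neurons were also higher with PAMAM in the hippocampus. Of 13 measured members 11 were higher, 8 by at least 0.32 and 2 by at least 2-fold, with a median of 0.54. Tnnt1, a troponin expressed in thalamic relay neurons, read by a probe at chr7:4456265-4456324 (mm9), had levels of -0.55 and 0.97. Its difference of 1.52 was the second largest among the brighter genes, those with a mean level above the gene median of -0.06. Ramp3, a receptor accessory protein, differed by 0.78 and 0.76 on its pair of probes, and Prkcd, the delta isoform of protein kinase C, by 0.70 and 0.83. Rora, a nuclear receptor, differed by 0.54 and 0.57. These 3 genes were higher on each of their measured probes. Zic1, a zinc finger factor, differed by 1.26 on its leading probe but by 0.20 on the other. Tcf7l2, a thalamic transcription factor, differed by -0.04 on the leading probe and 0.95 on the other, and Gbx2 was not above background on either array. Slc17a6, the vesicular glutamate transporter of subcortical neurons, differed by 0.03. The thalamic median was -0.01 in the bulb and -0.05 in the cortex, and the contrast between regions was not tested.

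Neurons of other neighbouring regions showed smaller list medians. Striatal markers had a median of 0.06 over 13 measured members and cortical markers 0.07 over 19. Habenular markers had a median of 0.17 over 4, with Gpr151 and Chrna3 not above background on either array. Hypothalamic markers were lower, with a median of -0.23 over 13 measured members, 8 of them lower and 6 by at least 0.32. Gal, the galanin precursor, was the only brighter member measured and differed by 0.02. Pmch, the precursor of melanin-concentrating hormone, stood at -2.58 and -3.74, and Avp, the vasopressin precursor, at -2.35 and -3.26. Kiss1, the kisspeptin precursor, went the other way, from a saline level of -4.30 to -3.54 with PAMAM. Sim1 and Otp, factors that specify hypothalamic neurons, were not above background on either array.

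The markers of the hippocampal fields themselves were slightly lower with PAMAM. Of 36 measured members 25 were lower and 11 higher, with a median of -0.13, and 1 was lower by at least 0.32. Wfs1, an endoplasmic reticulum protein that marks CA1 pyramidal cells, had levels of 4.92 and 4.60. Zbtb20, a zinc finger factor needed for hippocampal identity, stood at 4.23 and 3.94, and Prox1, which specifies granule cells, at -0.85 and -1.08. Cabp7, a calcium-binding protein, differed by -0.39. Each of these 4 genes was lower on the PAMAM array, by less than 0.4. By field the medians were -0.14 for CA1, -0.10 for CA2, -0.02 for CA3, -0.12 for the dentate gyrus and -0.15 for the whole hippocampus. Coch in the CA3 list stood apart in size, higher by 1.18 at levels under -1. In bulk tissue, fewer cells of a type and less RNA per cell cannot be told apart, here and in each list that follows. The summed signal of the field markers was 262 with saline and 243 with PAMAM, beside 258 and 405 for the choroid plexus and 39.3 and 47.8 for the thalamic list. The part of neighbouring tissue in the other differences described here was not tested.

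**Figure D2:**
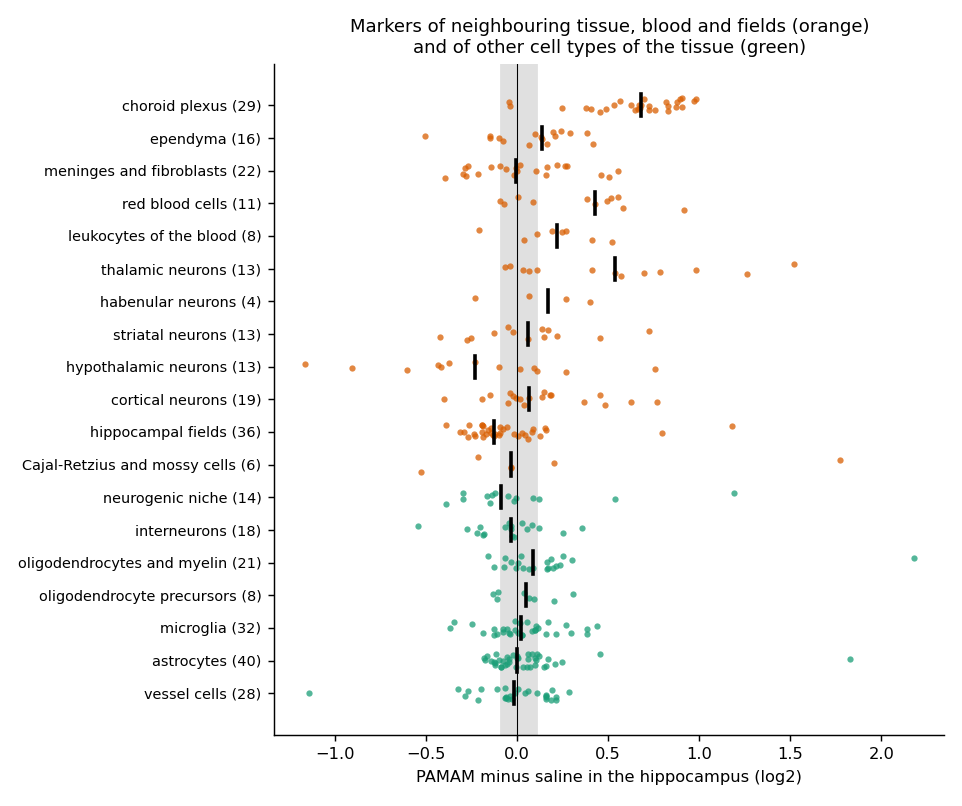
Difference between PAMAM and saline in the hippocampus (horizontal axis, log2) for each measured member of 12 lists of neighbouring tissue, blood and fields (orange) and 7 lists of other cells (green), with the number of members in brackets. Black bars are list medians and the grey band holds the middle 50% of all measured genes; the choroid plexus bar lies at 0.68, the thalamic bar at 0.54 and the astrocyte bar at -0.00.

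Resident cell types of the hippocampus had list medians near that of all genes. The identity genes of microglia, the macrophages of brain tissue, had a median of 0.03 over 23 measured members, and 0 of these differed by 0.32. Aif1, the calcium-binding protein used to stain microglia, stood at 1.11 on both arrays. Activation genes were mixed, with 3 of 9 measured members higher by at least 0.32 and 2 lower. H2-Eb1 and Cd74 of antigen presentation differed by 0.44 and 0.39, while H2-Ab1 of the same pathway differed by -0.34 and Itgax, an integrin, by -0.37. Identity genes of astrocytes, the glia that take up glutamate, had a median of -0.01 over 20 members and 0 past 0.32. Gfap, their intermediate filament, had levels of 2.25 and 2.31, and its further probes differed by -0.16 and -0.12. Genes of reactive astrocytes had a median of 0.04 over 20 measured members. Timp1, a metalloproteinase inhibitor made by reactive astrocytes, was the exception with levels of -4.78 and -2.95, the saline level being close to the lowest that was well above background, and Emp1, a membrane protein, differed by 0.45.

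Vessel and myelin protein genes also had medians near that of all genes. Endothelial markers had a median of 0.03 over 18 members and mural cell markers -0.06 over 10. Cldn5, the tight junction protein of brain endothelium, differed by 0.18. Cnn1, a smooth muscle calponin, was the mural exception with levels of -2.78 and -3.92. Myelin protein genes had a median of 0.03 over 13 members, with Mbp at 0.17. Myrf, the factor that drives myelin genes, differed by 2.18 at levels of -4.31 and -2.13, whereas the highest difference among the leading probes of myelin protein genes was 0.21, that of Mobp, with further probes of Mobp and Ermn at up to 0.39 and 0.40. The list of oligodendrocyte factors and lipid enzymes that holds Myrf had a median of 0.22, with 6 of 8 members higher and 1 by at least 0.32. Interneuron genes had a median of -0.03 over 18 members, with Sst, the somatostatin precursor, at -0.07 and Pvalb, parvalbumin, at 0.08. Genes of progenitors and immature neurons had a median of -0.07 over 10. Eomes, a factor of intermediate progenitors, differed by 1.19 at levels of -4.40 and -3.21.

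Among other gene families, chaperones of the endoplasmic reticulum were higher with PAMAM. The promoter windows that follow are shown because several abundant members of this family share a known promoter motif, the ER stress element, which binds Atf6 and NF-Y. RefSeq promoter sequences (GRCm38.p6, from 250 bases before to 50 bases after each start) were found for 29 of 33 members of the unfolded protein response list. The motif, CCAAT and CCACG with 9 bases of any kind between them, was searched on both strands and was present for 8 of the 29 members (27.6%) and for 37 of 27025 genes (0.137%). Each window is printed 5′ to 3′ on the gene's strand and capitals mark the match, which reads in the reverse direction in Creld2. Hspa5 lies on chr2:34771990-34772078 on the plus strand, Pdia6 on chr12:17266456-17266544 on the plus strand and Creld2 on chr15:88819485-88819573 on the plus strand. Hsp90b1 lies on chr10:86705603-86705691 and Canx on chr11:50325765-50325853, both on the minus strand.
Hspa5: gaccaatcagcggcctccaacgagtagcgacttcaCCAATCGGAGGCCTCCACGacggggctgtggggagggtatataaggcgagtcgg
Pdia6: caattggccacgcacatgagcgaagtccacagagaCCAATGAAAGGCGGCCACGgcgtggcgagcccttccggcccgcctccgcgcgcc
Creld2: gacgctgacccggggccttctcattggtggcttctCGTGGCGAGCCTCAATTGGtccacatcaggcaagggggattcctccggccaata
Hsp90b1: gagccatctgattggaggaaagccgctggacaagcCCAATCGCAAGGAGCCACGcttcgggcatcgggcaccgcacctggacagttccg
Canx: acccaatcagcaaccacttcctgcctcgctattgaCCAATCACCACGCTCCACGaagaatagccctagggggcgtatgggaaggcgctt
The first 4 genes were higher on the PAMAM array and Canx was not, as the values below show. A match describes these letters only and is not evidence that a factor was bound.

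Of 12 measured chaperones of the endoplasmic reticulum and their cofactors, 10 were higher, 5 by at least 0.32 and 0 lower by that amount, with a median of 0.31. Hspa5, the reticulum's main Hsp70 chaperone, was read by a probe at chr2:34631913-34631972 (mm9) with levels of 4.96 and 5.59. Creld2, a secreted reticulum stress protein, was printed 10 times, with means of 3.24 ± 0.055 and 3.79 ± 0.049 (SD over 10 spots). Its highest saline spot was 3.32 and its lowest PAMAM spot 3.72, so the spots did not overlap, as for 12.1% of measured probes printed 10 times. Manf, a secreted neurotrophic factor that binds Hspa5, stood at 1.36 and 2.07. Sdf2l1, a cofactor of Hspa5, stood at -0.19 and 0.69, the largest difference of the family at 0.88. Hsp90b1, the Hsp90 of the reticulum, differed by 0.38, and Calr, the lectin chaperone calreticulin, by 0.29. Canx, the membrane-bound lectin chaperone, had levels of 4.93 and 4.92, and Dnajb9, an Hsp40 cofactor, differed by -0.08. Members thus ranged from no difference to 0.88, with Hsp90b1 and Calr between.

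The 4 disulphide isomerases, enzymes that form bonds between cysteines of secreted proteins, were all higher, with a median of 0.41. Pdia6 stood at 4.69 and 5.13, with a second probe at 0.36, Pdia4 at -0.20 and 0.25, and P4hb differed by 0.12. Genes of reticulum-associated degradation, which removes misfolded proteins, had a median of 0.19, with Herpud1 at 0.21. Among the sensors, Xbp1 differed by 0.34 and Atf6 by 0.20, and Ern1, which splices Xbp1 mRNA, by -0.04. The arm of the kinase Perk and the factor Atf4 had a median of 0.06 over 8 members. Ddit3, which encodes the death-related factor Chop, differed by 0.35, and Atf4, Asns and Trib3 by 0.05, 0.01 and -0.02. The chaperone and isomerase genes differed more than the Perk arm by their medians, which was not tested. Members with the ER stress element had a median of 0.34, with 7 of 8 higher, and the 21 members without it 0.11, with 17 higher. Medians for the chaperones were 0.33 in the bulb and 0.31 in the cortex, near the hippocampal value.

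Heat shock genes were higher too, by smaller amounts. Over 35 members, all measured, 30 were higher and 5 lower, with a median of 0.17, and 7 were higher by at least 0.32. Small heat shock proteins, which hold unfolded proteins without ATP, had the highest median in the family, 0.43 over 6. Hspb1 stood at 2.04 and 2.94, and Cryab, alpha B crystallin, at 3.85 and 4.32 with a second probe at 0.41. Hspb3 differed by 0.85 at levels under -2.9, and Hspb6 by -0.17. The Hsp70 and Hsp110 genes had a median of 0.13 over 8, with the inducible Hspa1a at 0.35, Hsph1 at 0.38 and the constitutive Hspa8 at 0.12. All 6 Hsp40 genes and all 9 co-chaperones and factors were higher, each group with a median of 0.20. Chordc1, an Hsp90 cofactor, differed by 0.29 and the heat shock factor Hsf1 by 0.16. Mitochondrial chaperonins had a median of -0.02. The heat shock element, read as GAA, TTC and GAA with 2 free bases at each gap and searched on both strands, was present for 5 of 28 members with a promoter sequence (17.9%) and 0.662% of all genes, and members with and without it had medians of 0.20 and 0.19.

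**Figure D3:**
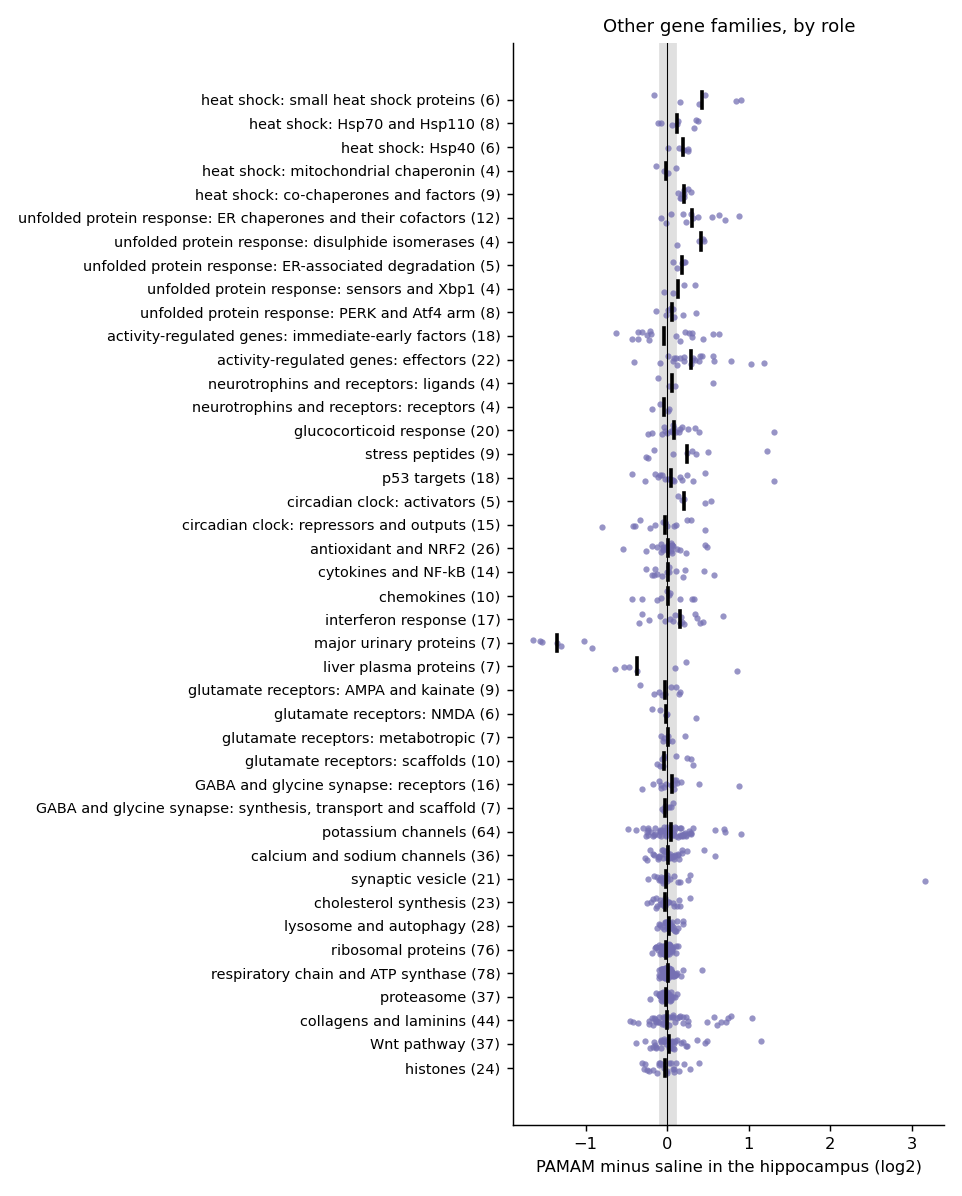
Difference between PAMAM and saline in the hippocampus (horizontal axis, log2) for each measured member of the other gene families, split by role, with the number of members in brackets. Black bars are medians and the grey band holds the middle 50% of all measured genes; major urinary protein genes lie furthest left with a bar at -1.35, and ribosomal, respiratory and proteasome genes stay close to 0.

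Activity-regulated genes divided by role. Immediate-early transcription factors had a median of -0.04 over 18 measured members, 9 higher and 9 lower, with 3 higher by at least 0.32 and 4 lower. Npas4, a neuron-specific factor of the inhibitory synapse program, had levels of 2.03 and 1.40. Fos was read by 10 spots on the saline array and 9 on the PAMAM array with means of 0.80 ± 0.049 and 0.44 ± 0.052 (SD over spots). The Fos spots of the 2 arrays did not overlap, as for 12.1% of measured probes printed 10 times. Fosb, a partner in the same AP-1 complex, went the other way, at -0.15 and 0.40. Ier5, a regulator of heat shock factor, differed by 0.64 and 0.53 on its pair of probes. Egr1 differed by 0.22, Nr4a1 by 0.16, Jun by -0.22 and Btg2 by -0.43, and Egr3 was not above background on either array. The factors therefore had no common direction in this pair.

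The effector genes, secreted and synaptic proteins that follow those factors, were mostly higher. Of 22 measured members 20 were higher, 9 by at least 0.32 and 1 lower by that amount, with a median of 0.30. Inhba, the activin beta A subunit, was read by a probe at chr13:16118634-16118693 (mm9) with levels of -0.42 and 0.76. Pcsk1, a protease that processes neuropeptides, stood at -1.46 and -0.43, and Nptx2, a pentraxin that gathers AMPA receptors, at -1.44 and -0.66. These 3 had the largest differences of the list, 1.18, 1.02 and 0.79. Ptgs2, the inducible cyclooxygenase, had spot means of -0.87 ± 0.12 and -0.29 ± 0.099 (SD over 10 spots). No PAMAM spot of Ptgs2 fell within the saline range, and 12.1% of measured probes printed 10 times likewise had no overlap. Bdnf, the neurotrophin that signals through TrkB, stood at 0.71 and 1.26. Arc, which internalises AMPA receptors, stood at 4.33 and 4.76, and Vgf, a neuropeptide precursor, at 5.02 and 5.34. Homer1 differed by 0.30 on its leading probe and by 0.35 to 1.16 on 4 others. Dusp5, a phosphatase of the MAP kinase Erk, differed by -0.41 at levels under -3.5. In the cortex 18 of 21 measured effectors were higher (53.5% of all genes there), with a median of 0.27. In the bulb 15 of 22 were higher (47.3% of all genes there), with a median of 0.07.

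**Figure D4:**
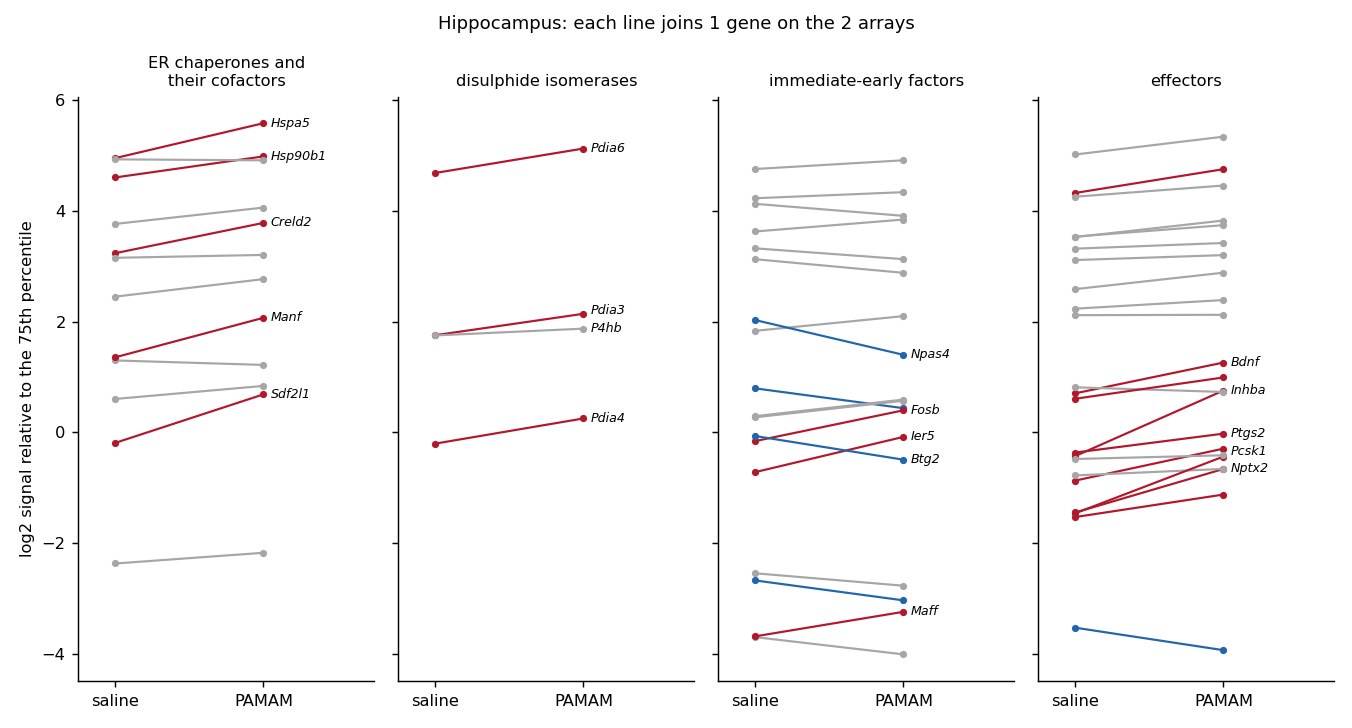
Levels on the hippocampal saline array and the hippocampal PAMAM array (vertical axis, log2 signal relative to the 75th percentile) for ER chaperones and cofactors, disulphide isomerases, immediate-early factors and effectors. Each line joins 1 gene, red lines are higher by at least 0.32 with PAMAM and blue lines lower by at least 0.32; 9 effector lines are red and 1 is blue.

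The cyclic AMP response element TGACGTCA, the site of the activity-dependent factor Creb, reads the same on both strands. It was present in the promoter window of 6 of 31 activity-regulated genes with a sequence (19.4%) and of 549 of 27025 genes (2.03%). The windows of Pcsk1 (chr13:75089744-75089821, plus strand), Dusp1 (chr17:26508573-26508650, minus strand) and Btg2 (chr1:134079279-134079356, minus strand) are shown, since these genes carry the same element but differ by 1.02, 0.38 and -0.43. Capitals mark the element.
Pcsk1: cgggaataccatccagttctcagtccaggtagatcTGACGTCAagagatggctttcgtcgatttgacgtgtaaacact
Dusp1: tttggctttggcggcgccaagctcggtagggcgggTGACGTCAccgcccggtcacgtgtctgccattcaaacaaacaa
Btg2: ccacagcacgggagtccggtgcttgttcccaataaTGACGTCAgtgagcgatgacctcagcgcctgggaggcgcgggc
The medians were 0.29 for the 6 members with the element and 0.11 for the 25 without it.

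Neurotrophin genes other than Bdnf were near the level of all genes. Ntf3 differed by -0.11, and Gdnf was not above background on either array. The receptors had a median of -0.04 over 4. Ntrk2, which encodes the Bdnf receptor TrkB, stood at 3.78 and 3.80, and its further probes differed by 0.02 to 0.19. Ngfr, the p75 receptor, differed by -0.18. Of the 8 measured genes, Bdnf alone passed 0.32 in either direction.

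Stress peptide genes had a median of 0.25 over 9 measured members, 6 of them higher and 3 by at least 0.32, but the median of the 5 brighter members was -0.16. Crh, the corticotropin-releasing hormone that starts the hormonal stress response, had levels of -1.58 and -0.35, a difference of 1.23. Adcyap1, the peptide PACAP, differed by 0.50, and Crhr1, the main receptor for Crh, by 0.31 and 0.69 on its pair of probes. Crhbp, which binds and inactivates the hormone, differed by -0.16. Genes that respond to glucocorticoids had a median of 0.08 over 20 members, with Fkbp5, a cofactor of the receptor, at 0.14, Tsc22d3 at 0.25 and Dusp1 at 0.38. Cdkn1a, the cell cycle inhibitor p21 and a target of both p53 and the glucocorticoid receptor, had the largest difference of either list. Its spot means were -1.26 ± 0.076 and 0.05 ± 0.073 (SD over 10 spots) on a probe at chr17:29237377-29237436 (mm9). The saline spots ended at -1.14 and the PAMAM spots began at -0.06, and such a lack of overlap was seen for 12.1% of measured probes printed 10 times. Other p53 targets did not share this size, with Mdm2 at 0.15, Bax at -0.06, Ccng1 at 0.06 and Gadd45a at 0.46, and a median of 0.05 over 18. In the cortex Cdkn1a differed by 1.59 and in the bulb by 0.20.

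Clock genes split between activators and outputs. All 5 activators were higher, with a median of 0.21, Arntl at 0.21 and Clock at 0.13. The highest of them is Rora at 0.54, which the thalamic list also holds. Outputs and repressors had a median of -0.02 over 15. Ciart, a repressor of the activators, differed by -0.80, Nr1d1, which encodes Rev-erb alpha, by -0.42, and Dbp, a clock output factor, by -0.39 and -0.46 on its pair of probes, while Nfil3, which opposes Dbp, differed by 0.47. The cold-inducible RNA-binding genes Cirbp and Rbm3 differed by -0.38 and -0.34, with further probes at -0.15 and from -0.27 to -0.20. Both genes were lower on every measured probe.

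The largest lower group was that of the major urinary proteins, lipocalins made by the liver that carry pheromones in urine. Of 11 genes on the array 7 were measured, all 7 were lower, 6 by at least 2-fold, and their median was -1.35. Mup17 stood at -1.17 and -2.82, Mup18 at -0.42 and -1.98 and Mup19 at 0.02 and -1.51, on probes between chr4:61253019-61253078 and chr4:61439496-61439555 (mm9). The sums of signal for the list were 3.54 and 1.32 times the 75th percentile, so the group was dim on both arrays. Mup20 was above background with saline only, and was at least 2.85-fold lower with PAMAM. The closest pair of probes in this family, for Mup3 and Mup6, matched at 51 base positions when aligned without gaps, and which copy a probe reads is uncertain. The bulb median was -2.43 and the cortical median -0.49, lower in each region, and the regions were not tested against each other. Other plasma protein genes of the liver had a median of -0.37 over 7 measured members, 4 of them lower by at least 0.32 and 3 higher. The median of the 2 brighter members was 0.16, and the summed signal of the list was 41.1 with saline and 46.6 with PAMAM. Serpina1a, alpha-1 antitrypsin, had levels of -0.89 and -1.52, while its second probe differed by -0.10, and Apoc3, an apolipoprotein, went the other way by 0.85 on one probe and 0.01 on the other. Ahsg, Fgg and Serpina3k were above background with saline only, which gives no direction. Over all genes without another measured probe, 1277 were above background with saline only and 353 with PAMAM only.

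Among immune signalling genes, cytokine and chemokine lists had medians near that of all genes and interferon response genes were more often higher. Il1b, Il6, Tnf, Icam1 and Cxcl10 were not above background on either array. The cytokine and NF-kB list had a median of 0.01 over 14 measured members, with Socs3, a feedback inhibitor, at 0.45, and the chemokine list 0.01 over 10. Interferon response genes had a median of 0.16 over 17 measured members, 12 of them higher (51.2% of all genes). Of the 17, 5 were higher by at least 0.32 (7.45% of all genes) and 1 was lower by that amount (4.44%). Only 5 of the 17 were brighter genes, with a median of 0.09. Isg15, a ubiquitin-like modifier, stood at -0.88 and -0.54, whereas Ifit3 differed by -0.31. Antioxidant genes had a median of 0.01 over 26. Hmox1, haem oxygenase, differed by 0.12 and -0.10 on its pair of probes. Cat, catalase, had levels of 3.31 and 2.77, but a second probe differed by 0.09.

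Synaptic and housekeeping families stayed near the median of all genes. AMPA and kainate receptor genes had a median of -0.02 over 9, NMDA receptor genes -0.01 over 6, metabotropic receptor genes 0.00 over 7 and GABA and glycine receptor genes 0.06 over 16. Gabra3, the alpha 3 subunit of GABA receptors, was the exception, at 2.27 and 3.15, though a second probe differed by 0.19. Gabrd, the delta subunit, differed by 0.38. Ribosomal protein genes had a median of -0.01 over 76, respiratory chain genes 0.01 over 78, proteasome genes -0.02 over 37, lysosome and autophagy genes 0.02 over 28 and cholesterol synthesis genes -0.03 over 23. Of these 5 lists, 1 gene passed 0.32, Cox8b of the respiratory chain, at 0.43.

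Single brighter genes stood beyond those lists. Myl4, an atrial myosin light chain, had levels of 0.07 and 1.74, and its difference of 1.67 was the largest among the brighter genes. Its cortical levels were higher, at 3.89 with saline and 3.87 with PAMAM, and a part of neighbouring cortex in its difference was not tested. Ap2b1, a subunit of the clathrin adaptor, stood at 1.78 and 2.90, and Ecrg4, a secreted peptide precursor of choroid plexus, at 1.49 and 2.48. Cadm3, a synaptic adhesion protein, differed by 1.13 on one probe and -0.10 on the other. On the lower side, Ecel1, an endopeptidase of neurons, stood at 1.16 and 0.27. Slc8a3, a sodium-calcium exchanger, stood at 5.01 and 4.22, and Slitrk3, a synaptic adhesion protein, at 0.90 and 0.34. None of the brighter genes was 2-fold lower. Of 6312 genes with 2 or more measured probes, 103 were higher by at least 0.32 on each and 28 lower by that amount on each. On the leading probe alone, 1664 and 992 of all 22330 genes passed. Choroid plexus and thalamic genes given above, such as Folr1 and Prkcd, are among the 103. Pdp1, a phosphatase of pyruvate dehydrogenase, was higher by 0.76 to 0.89 on 3 probes, Trib1, a pseudokinase, by 0.73 and 0.77, and Ngb, neuroglobin, was lower, at -0.55 and -0.52.

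**Figure D5:**
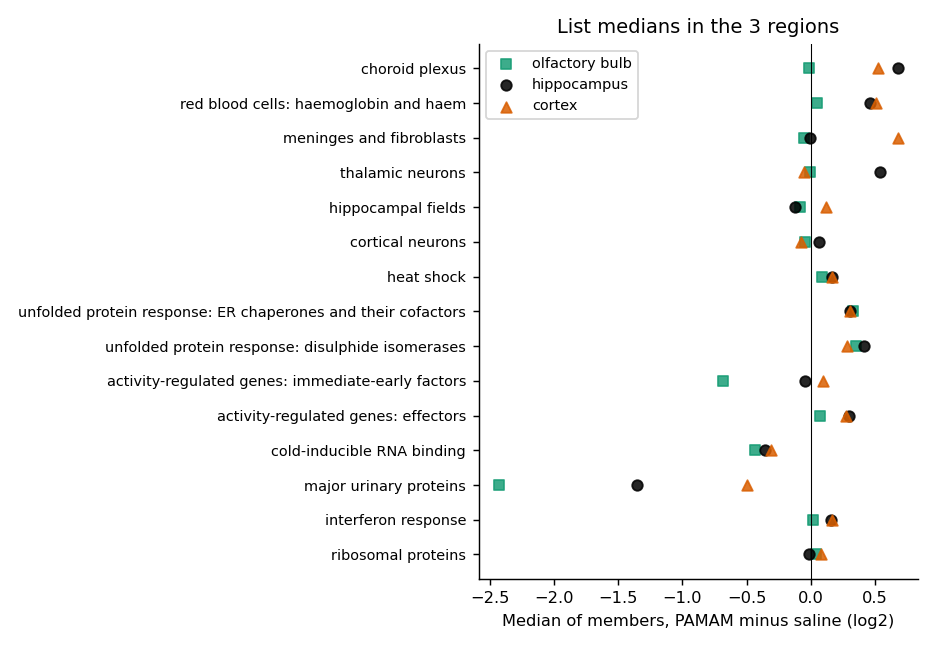
Median difference between PAMAM and saline (horizontal axis, log2) of 15 lists or roles in the olfactory bulb (squares), hippocampus (circles) and cortex (triangles), each from 1 array per treatment. ER chaperones lie between 0.31 and 0.33 in the 3 regions, while the thalamic list lies at 0.54 in the hippocampus and near 0 in the others.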

How the data were processed

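RNA of 6 groups was hybridised to 1-colour Agilent arrays, 1 each. Intensity per spot, unlogged, was deposited with marks for background, saturation and outliers, as written by Feature Extraction 10.7.3.1 on a G2505C scanner (design 028005, probe positions on mm9), per the file headers. The authors' deposited table holds log2 values. Against the scanner values it equalled the scaled log2 values centred on each probe's median (r from 0.9999 to 1, 29553 probes, largest residual 0.0233), with column medians of -0.0462 and 0.0254 for the hippocampal arrays. Its treatment of repeated spots and any filter are unknown.

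Here log2 of processed signal was set against the 75th percentile of the array's probe spots, controls left out, dropping spots marked as outliers. No test was made, as each side has 1 array. A list is described by counts and its median beside those of all genes. The members and lists were chosen with earlier results of these data known. Named genes were drawn from the 15 highest and 15 lowest of the brighter genes. Also drawn on were list members at least 2-fold different or among the 3 largest of a role. The 5 largest bounds each way, genes 2-fold different on several probes and further members needed to describe a role were added. Which of these the text prints was a further choice, and some brighter genes and 2-fold list members are left out. The 247 named genes counted below include ones not printed. A gene such as Pdp1, Trib1 or Ngb, named for its several probes, was picked after its values were seen. For a bound, the bright level was compared with the lowest level well above background on the other array, or with the dim probe's level where that was higher. The counting steps were tested on simulated data. Tools were Python 3.11.15, numpy 2.4.6, pandas 2.3.3, matplotlib 3.10.9, R 4.3.3 and limma 3.58.1 (normexp with offset 50). Quantile normalization was computed in Python. Alternatives were median centring, quantile normalization, normexp background correction, no filter on dim probes, brighter genes only, all probes of a gene and the authors' table. Symbols and promoters came from RefSeq (GRCm38.p6); exon and UTR annotation was not used here.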

Additional observations from a re-analysis of the deposited data

Results flagged for a closer look

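Of 247 named genes, 9 differed by at least 1.5-fold in the hippocampus and by at least 1.5-fold the opposite way in another region, each from 1 array per side, so these contrasts were not tested. Against the cortex, the exchanger gene Slc8a3 stood at -0.80 in the hippocampus and 0.86 in the cortex. Oacyl, an acyltransferase-like gene, stood at -0.61 and 0.73, the uncharacterised 4933421H12Rik at -0.64 and 0.81, and 1 probe without a gene name at -0.64 and 0.85. Cnn1, the calponin of smooth muscle, stood at -1.14 and 1.13. Hspb3, a small heat shock protein of muscle, went the other way with 0.85 and -0.63, as did Cacna2d4, a calcium channel subunit, with 0.59 and -0.82. Against the olfactory bulb, the Wnt ligand gene Wnt9b stood at 1.15 in the hippocampus and -0.76 in the bulb, and the odorant receptor gene Olfr1043 at 2.14 and -0.76. Slc8a3, 4933421H12Rik, Oacyl and the unnamed probe belong to the brighter genes of the hippocampus, and the other 5 to the dimmer ones.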

How the results depend on the processing

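No paired analysis was possible because each group has 1 array. Probes at least 2-fold higher numbered 193, and 71 with normexp background correction, 2480 without the filter on dim probes and 14 among brighter probes. Probes at least 2-fold lower numbered 19, and 4, 1075 and 1 under the same settings. With normexp the thalamic median was 0.40 in place of 0.54 and the major urinary protein median -0.91 in place of -1.35. Among brighter genes only, 4 list medians changed sign: habenular neurons from 0.17 to -0.082, hypothalamic neurons from -0.23 to 0.017, stress peptides from 0.25 to -0.16 and liver plasma proteins from -0.37 to 0.16, each over fewer genes. Normexp moved 69 of 247 named genes by more than the spot noise and quantile normalization 1, and neither reversed any. Median centring and the authors' table moved no named gene or list median beyond it. Dim signal limits most 2-fold differences.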

Other observations

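Further families held single genes apart from their lists. Of 1356 odorant and vomeronasal receptor genes on the array, which belong to the nose, 124 were measured in the hippocampus, with a median of 0.14. Of these, 33 were higher by at least 0.32 (26.6%, against 7.45% of all genes) and 7 lower (4.44% of all genes). Only 9 of the 124 were brighter genes, with a median of 0.09. The dimmest class of all measured probes also had a median of 0.09. Vmn1r173, a vomeronasal receptor gene, had levels of -3.49 and 0.36, the largest difference of the list at 3.85. Cplx4, a complexin of retinal synapses, stood at -3.62 and -0.46 within a synaptic vesicle list whose median was -0.02 over 21. Collagen and laminin genes had a median of 0.00 over 44 measured members. Of these, 8 were higher by at least 0.32 and 3 lower (7.45% and 4.44% of all genes). The largest difference among them was 1.04, in the 1 member past 2-fold. Col8a2 of type VIII collagen was higher by 0.66 and 0.71 on its pair of probes, and Col11a2 and Col9a3, chains of cartilage collagens, by 0.78 and 0.74. Potassium channel genes had a median of 0.05 over 64, with the choroid plexus members Kcne2 and Kcnj13 at 0.91 and 0.70 and Kcnh5, a neuronal channel, at 0.71. Wnt pathway genes had a median of 0.02 over 37 and histone genes -0.02 over 24.

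Long intergenic RNA probes were 16251 on the array, of which 6227 were measured. Of these, 71 were at least 2-fold higher and 5 lower, or 1.22% against 0.535% of other probes. The 2 kinds of probe were not matched by level, and most 2-fold differences came from dim probes. At 3 long intergenic loci at least 2 probes were past 2-fold the same way. These were chr19:5834117-5835940 at 1.06 to 1.07 on 3 probes, chr10:3231337-3231802 at 1.02 to 1.06 on 2, and chr8:48476637-48492537 at 1.51 to 2.83 on 2 of 3 (all mm9). The third measured probe of the chr8 locus differed by 0.44. Of genes well above background on 1 hippocampal array only, 353 were so on the PAMAM array and 1277 on the saline array. The lowest level so marked was -5.05 with saline and -4.56 with PAMAM, so these 2 counts give no direction of difference. A bound of at least 2-fold was reached by 210 of the 353, as higher, and by 19 of the 1277, as lower. These bounds also rest on the unequal lowest levels. A long intergenic RNA probe at chr9:39984315-39984374 was at least 67.2-fold higher and one at chr14:99753321-99753380 at least 94.1-fold lower (mm9). Slc2a9, a urate transporter gene, was at least 2.68-fold lower.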
